A study of Arabidopsis thaliana with 12 samples.

Results

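The comparison set plants that overexpress C3H14 (group C3H14-OE, 3 arrays) against plants mutant for both C3H14 and C3H15 (group c3h14c3h15, 3 arrays), which together make 6 of the 12 arrays of the series. The arrays were chosen by the genotype in their sample titles. The remaining 6 arrays, 3 of wild type (WT) and 3 of plants that overexpress C3H15 (C3H15-OE), entered the same fit and are quoted beside the results. All groups were Arabidopsis thaliana in the Col-0 background with no treatment named in the labels, grown together in a glasshouse at 22 °C with 16 h of light and 8 h of dark. RNA came from the basal 4 cm of inflorescence stems that were 12 to 17 cm tall, and was measured on Affymetrix 3′ expression arrays, 1 per sample. The comparison places gain of one gene against loss of the pair, so a difference can lie in either group, and the WT level is given where it bears on this. The promoter of the transgene, the mutant alleles, and whether the 3 arrays of a group are separate lines or separate plants of 1 line are not stated in the sources at hand. The p-values therefore measure the spread between these arrays.

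C3H14 and C3H15 encode related tandem CCCH zinc finger proteins, a class that can bind RNA and can also act in the nucleus. Secondary walls of Arabidopsis stems consist of cellulose, the hemicellulose xylan and lignin, laid down in xylem and interfascicular fibres. The series names secondary wall metabolism and pollen formation as its themes.

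All values are log2 of the deposited normalized intensity, and a difference is the mean of C3H14-OE minus the mean of c3h14c3h15, so that 1 unit is a change of 2-fold. A probe set was called when its limma p-value, adjusted by Benjamini-Hochberg over all 22746 probe sets, was under 0.05. The first principal component of the 6 arrays held 55.7% of the variance and separated the groups, with scores of 27.8, 21.9 and 54.8 for C3H14-OE and of -17.6, -49.1 and -37.8 for c3h14c3h15. The third C3H14-OE array and the first c3h14c3h15 array lay farthest from the others of their groups on the second component, which held 16.7%. Correlations of log2 values ran from 0.983 to 0.995 within C3H14-OE, from 0.980 to 0.988 within c3h14c3h15 and from 0.954 to 0.981 between the groups. Genes could be named for 13513 probe sets. The rest stay unnamed here, the probe set of C3H15 among them.

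The transcript of C3H14 (AT1G66810) read 8.43, 9.10 and 7.07 in the C3H14-OE arrays and 6.55, 6.43 and 6.08 in the c3h14c3h15 arrays. Every overexpressor array was above every mutant array, although the third overexpressor array lay only slightly above the highest mutant value. The group means were 8.20 ± 1.03 and 6.35 ± 0.24 (SD, n = 3), a difference of 1.84 (SE 0.45, adjusted p = 0.0206) or 3.59-fold. WT stood at 6.85 ± 0.67 and C3H15-OE at 5.52 ± 0.42. The third overexpressor array, at 7.07, lay inside the WT mean ± SD, so it shows no clear excess of this transcript over WT. The C3H14 call was kept in 17 of 21 alternative fits. It was lost when only the arrays compared were fitted and without the first or second C3H14-OE array or the third mutant array, with adjusted p up to 0.0683. Because the array reads 3′ ends, RNA from a disrupted allele may still be detected, and the mutant level checks the mutant label only weakly. Another gene of the tandem CCCH list had a named probe set, and it was not called.

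C3H14-OE and c3h14c3h15 differed at many transcripts. Of the 22746 probe sets, 1794 were higher in C3H14-OE (7.89%) and 1560 were lower (6.86%), 3354 in all (14.7%). The median difference was 0.65 among those higher and -0.70 among those lower, against -0.03 over all probe sets. Differences beyond 2-fold were found at 345 of the higher and 415 of the lower probe sets, and beyond 4-fold at 63 and 45. The counts rest on single arrays to a degree. They were 988 higher and 1126 lower without the first C3H14-OE array, 1151 and 949 without the second and 1063 and 815 without the third. Leaving out the second mutant array gave 1090 and 1084, and leaving out the third gave 1169 and 977. With only the 6 arrays compared in the fit, 992 were higher and 856 lower. No called probe set changed its direction under any of the alternative settings. Where the values, arrays and weights of both groups were unchanged, the difference was the same by construction, so its direction could not change.

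**Figure D1:**
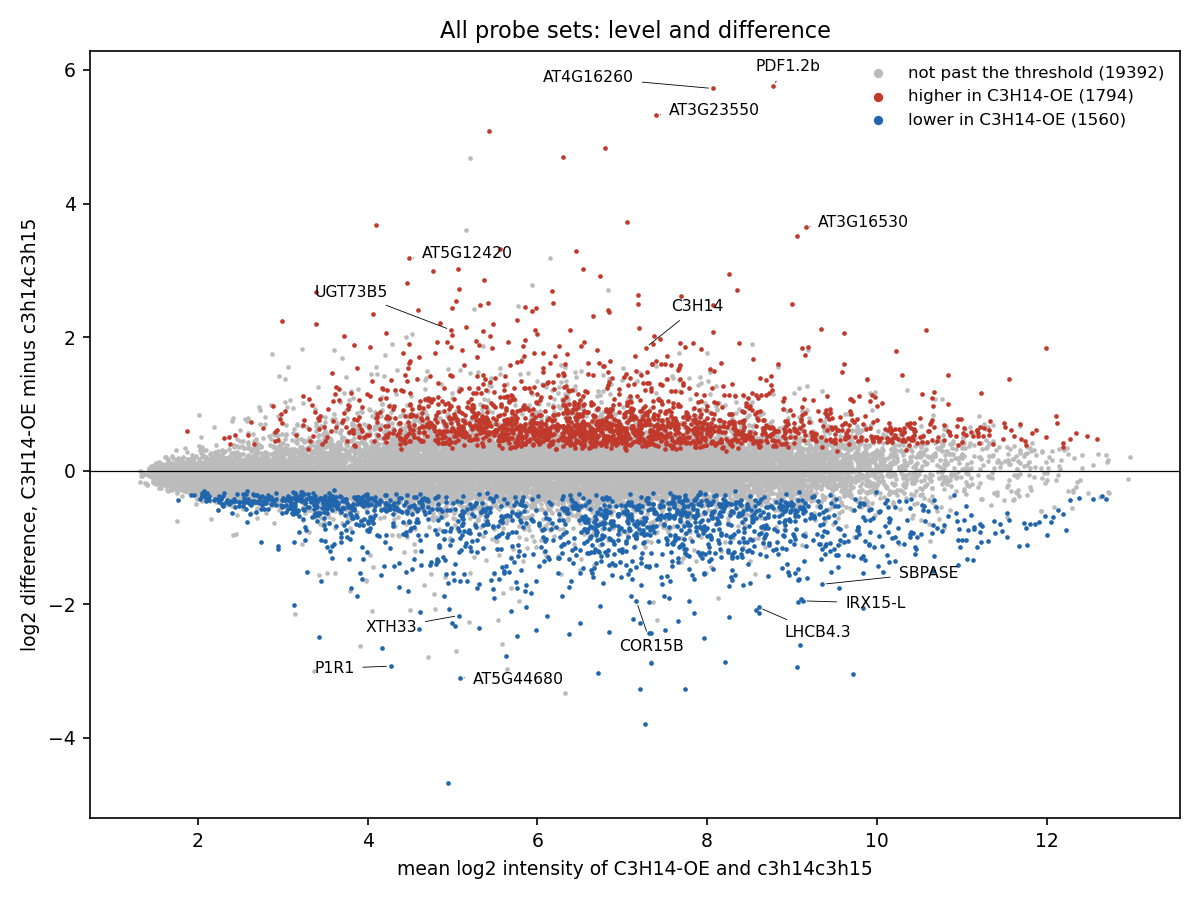
Each point is a probe set, with the mean log2 intensity of C3H14-OE and c3h14c3h15 on the x axis and the log2 difference, C3H14-OE minus c3h14c3h15, on the y axis. Red points (1794) were higher and blue points (1560) lower in C3H14-OE at an adjusted p under 0.05, grey points were not called, and PDF1.2b stands highest among the labelled genes at 5.77.

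The WT mean lay between the 2 group means for 1506 of the 1794 higher probe sets (83.9%) and for 1321 of the 1560 lower ones (84.7%), against 47.4% of all probe sets. Among the higher probe sets the median of C3H14-OE minus WT was 0.22 and that of c3h14c3h15 minus WT was -0.45. Among the lower ones these medians were -0.24 and 0.46. The probe sets were chosen for a wide gap between the 2 groups, so a WT value inside the gap is favoured by that choice, and these shares are a description.

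The gene with the largest difference was PDF1.2b, a plant defensin of the jasmonate and ethylene response. It read 11.41, 11.14 and 12.42 in C3H14-OE and 6.29, 5.47 and 5.91 in c3h14c3h15, a difference of 5.77 (SE 0.93, adjusted p = 0.00362) or 54.4-fold. The groups were far apart, while WT was intermediate and variable at 7.86 ± 1.74 (SD, n = 3) and C3H15-OE stood at 10.22 ± 1.97. The probe set of PDF1.2b carries the _x_at suffix, which marks probes that may also match near-identical transcripts, so its signal may include that of relatives. PDF1.2, a close relative, read 6.55, 4.59 and 11.52 in C3H14-OE against 2.83, 2.61 and 3.17 in the mutant. Its groups did not overlap, but the overexpressor arrays differed so much among themselves that the difference of 4.68 was not called (adjusted p = 0.0938).

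Of the 13 defensin and defensin-like probe sets, a list chosen after the values were seen, 4 were higher, against 7.89% of all probe sets, and none was lower. LCR69, a defensin-like gene, read 9.20, 8.88 and 9.86 against 7.95, 7.76 and 8.05 in the mutant, a difference of 1.39 (adjusted p = 0.00422). PDF1.4 differed by 1.21 (adjusted p = 0.0155) and PDF2.1 by 0.93 (adjusted p = 0.0253), each with all C3H14-OE arrays above all mutant arrays. The median of the 13 was -0.08, and the other 9 were not called. The count of 4 became 2 without the second mutant array and 3 with only the arrays compared.

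Several loci without a symbol in the annotation showed differences as large as the defensins. AT4G16260 read 10.65, 9.96 and 12.17 in C3H14-OE and 6.17, 3.85 and 5.58 in the mutant (difference 5.72, adjusted p = 0.00362). AT3G23550 read 9.81, 10.03 and 10.36 against 4.52, 4.87 and 4.82 (difference 5.33, SE 0.44, adjusted p = 0.000253), which is 40.1-fold. The 3 arrays of each group lay close together for AT3G23550, and WT stood between them at 7.59 ± 0.84 (SD, n = 3). AT3G16530 read 11.31, 10.77 and 10.88 against 7.47, 7.25 and 7.28 (difference 3.65, adjusted p = 0.000362). Its WT level of 9.57 ± 0.63 was again intermediate, and c3h14c3h15 was below WT (difference -2.23, adjusted p = 0.00584) where C3H14-OE was not called against WT (difference 1.42, adjusted p = 0.162).

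Among the other 10 loci without a symbol that had the largest positive differences, WT lay close to 1 of the 2 groups in some. AT1G10990 read 6.57, 5.99 and 6.06 in C3H14-OE and 3.62, 3.40 and 4.29 in the mutant, with WT at 6.24 ± 0.55 (SD, n = 3), level with the overexpressor. AT4G24350 read 6.84, 5.82 and 7.04 against 4.01, 4.38 and 3.86, with WT at 4.32 ± 0.20, near the mutant. AT4G24350 was higher in C3H14-OE than in WT by 2.24 (adjusted p = 0.0416), and AT1G10990 was lower in c3h14c3h15 than in WT (difference -2.47, adjusted p = 0.00775). The remaining loci were AT5G12420 (difference 3.18), AT1G52200 (2.69), AT4G27300 (2.62), AT1G05575 (2.52), AT2G41640 (2.40), AT2G18690 (2.38) and AT2G28780 (2.34), each with adjusted p of 0.013 or less. AT1G65500 (difference 2.62, adjusted p = 0.0409) rested on the third C3H14-OE array, which read 10.78 beside 7.41 and 7.32, and its call was kept in 7 of 21 alternatives.

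Genes of stress signalling and of small molecule conjugation were among the named genes with the largest positive differences. WRKY53, a transcription factor of leaf senescence and defence, read 7.07, 6.25 and 7.22 in C3H14-OE and 5.30, 4.49 and 5.46 in c3h14c3h15 (difference 1.76, SE 0.34, adjusted p = 0.00735). C3H15-OE was higher still at 7.61 ± 0.45 (SD, n = 3). WRKY53 was the only called member among 7 WRKY probe sets, beside 7.89% higher over all probe sets. STZ (ZAT10), a zinc finger repressor of stress responses, read 9.06, 7.32 and 8.89 against 6.40, 6.40 and 6.57 (difference 1.97, adjusted p = 0.0203). Its call was kept in 15 of 21 alternatives and was lost without the first or the third C3H14-OE array or the second or the third mutant array.

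CHX16, of the cation/proton exchanger family, read 6.13, 6.09 and 5.50 in C3H14-OE against 3.89, 4.40 and 3.88 in the mutant (difference 1.85, SE 0.18, adjusted p = 0.000625). WT stood at 5.77 ± 0.11 (SD, n = 3), level with the overexpressor, and c3h14c3h15 was lower than WT (difference -1.71, adjusted p = 0.00178). The CHX16 difference thus lay between the mutant and the other 3 groups. PDC2, a pyruvate decarboxylase of fermentation, differed by 1.60 (adjusted p = 0.00496). CCOAMT, annotated as a caffeoyl-CoA O-methyltransferase, differed by 2.46 (adjusted p = 0.0057).

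The UDP-glycosyltransferases attach sugars to hormones, lignin precursors and other small molecules. Of 43 probe sets of this family 7 were higher in C3H14-OE and 3 were lower, against 7.89% and 6.86% of all probe sets, and the family median was -0.03. UGT73B5 read 5.90, 5.83 and 6.37 against 4.14, 3.67 and 3.96 in the mutant (difference 2.11, SE 0.19, adjusted p = 0.000521). UGT87A2 read 7.09, 7.19 and 8.24 against 5.73, 5.32 and 5.72 (difference 1.92, adjusted p = 0.00522). UGT72E1, which glucosylates monolignol aldehydes, read 5.37, 5.13 and 5.79 against 3.56, 3.66 and 3.39 (difference 1.89, adjusted p = 0.00161). All 3 had groups that did not overlap, which was a condition of their choice, and were kept in every alternative in which they were tested. UGT85A2 (1.32), UGT71C3 (1.35), UGT73B1 (1.25) and UGT76C2 (0.81) were the other members higher, and those lower were UGT78D2 (-0.43), UGT71C4 (-0.43) and UGT76D1 (-0.39). The higher count was 4 without the first C3H14-OE array and 5 with only the arrays compared.

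Other enzyme families showed a few called members each. Of 24 cytochrome P450 probe sets 3 were higher, CYP71B22 (1.12), CYP71B29 (0.86) and CYP71B6 (0.68), against 7.89% of all probe sets, and none was lower. The P450 count fell to 0 without the first or the second C3H14-OE array and with only the arrays compared. Of 20 beta-glucosidases BGLU33 (1.91, adjusted p = 0.00475) and BGLU45 (1.05, adjusted p = 0.0467) were higher and BGLU41 (-0.73, adjusted p = 0.0066) was lower, shares near the 7.89% and 6.86% of all probe sets. BGLU45 belongs to the branch that releases monolignols from their glucosides, and its call was kept in 8 of 21 alternatives. The peroxidase AT5G64120 differed by 1.13 (adjusted p = 0.0258), the only call among 6 peroxidases. It was kept in 15 of 21 alternatives and lost without any 1 of the C3H14-OE arrays and without the first or the third mutant array.

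**Figure D2:**
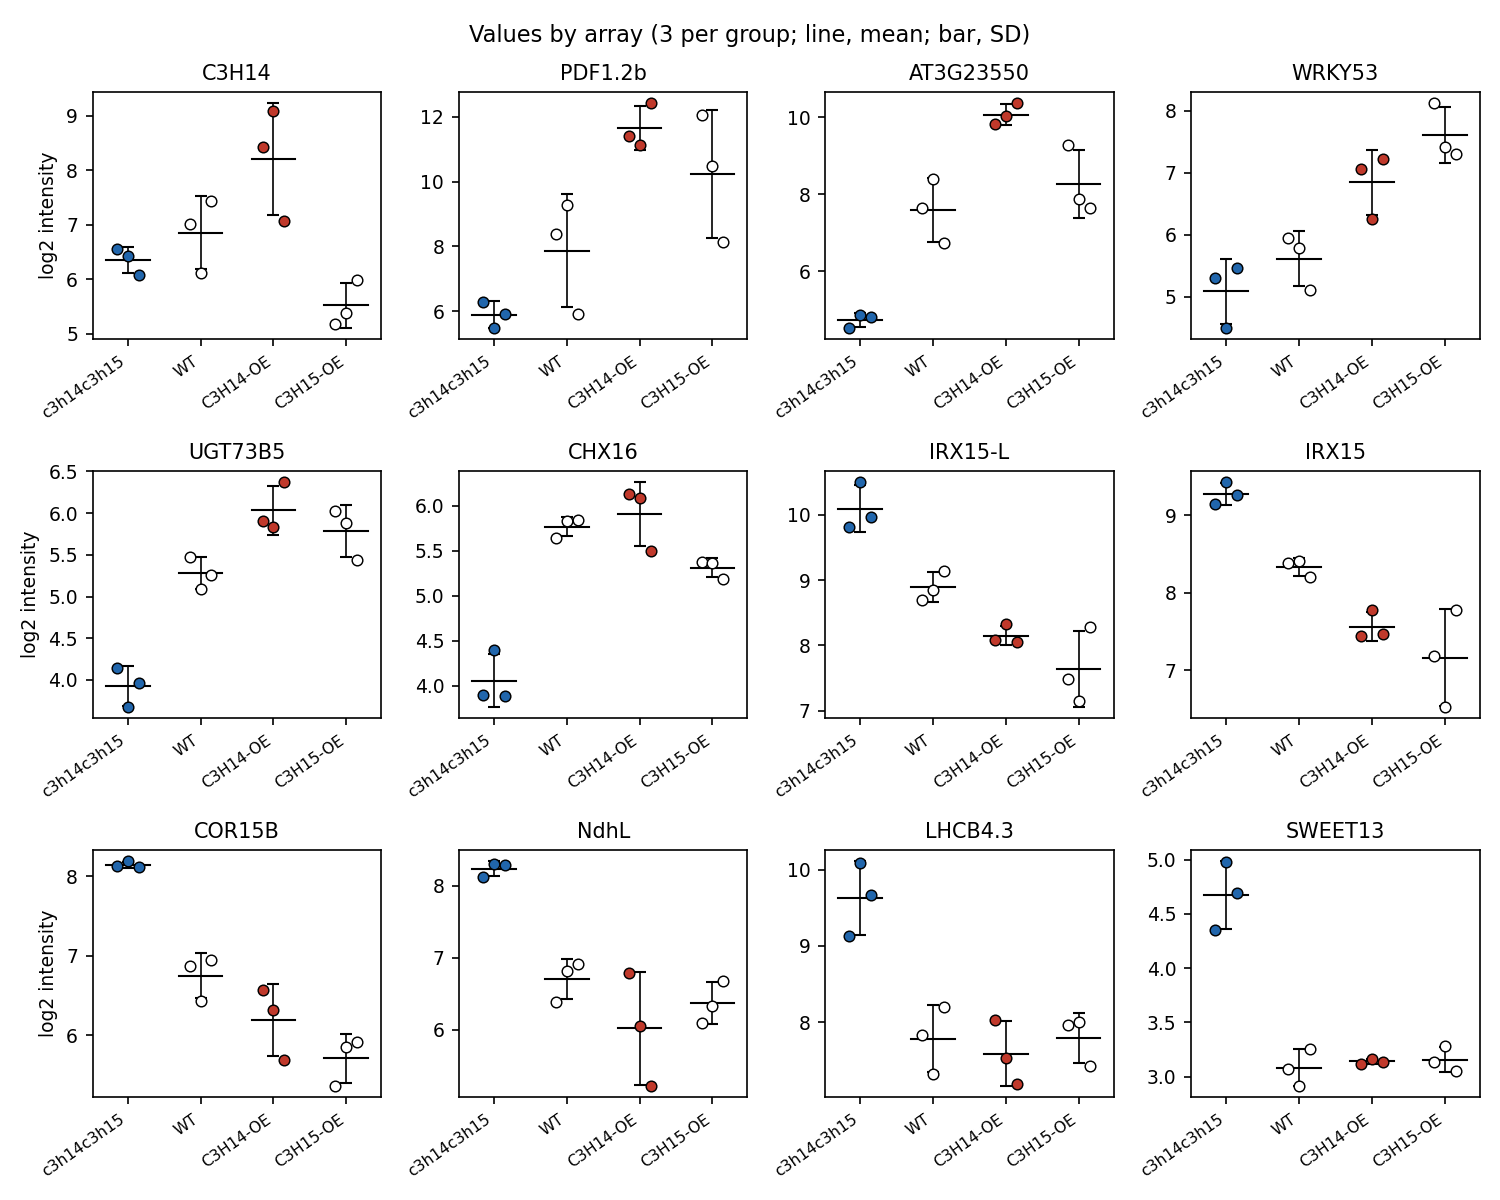
Log2 intensity (y axis) of 12 named genes in the 3 arrays of each group, with c3h14c3h15 in blue, C3H14-OE in red and WT and C3H15-OE in white, a line at the mean and a bar of 1 SD. C3H14-OE and c3h14c3h15 do not overlap in any of the 12 panels, which the rule for the largest differences required of most of these genes. The WT mean lies level with C3H14-OE for CHX16, LHCB4.3 and SWEET13.

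The third C3H14-OE array carried high readings that the other 2 arrays of the group did not share. The senescence-associated SWEET transporter SAG29 read 4.42, 4.55 and 9.90 in the C3H14-OE arrays, the calmodulin-like gene CML37 read 2.83, 2.35 and 6.33, and the late embryogenesis gene LEA4-5 read 3.69, 3.46 and 7.10. The chitinase-list gene CHI read 7.51, 6.27 and 10.77 against 6.27, 4.42 and 5.75 in the mutant. None of these was called (adjusted p = 0.439 for SAG29, 0.191 for CML37, 0.365 for LEA4-5 and 0.0712 for CHI). Among 8 calmodulin-like, 7 late embryogenesis abundant and 2 chitinase and glucanase probe sets no call was made. How far this array moves genes described above was tested by leaving it out. Among them, PDF1.2b, AT3G23550, WRKY53 and UGT73B5 kept their calls. Calls lost included those of STZ, AT1G65500, PDF2.1, UGT71C3, CYP71B6, BGLU45 and AT5G64120.

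Of the 4 xylan genes with a named probe set 3 were lower in C3H14-OE than in c3h14c3h15, against 6.86% of all probe sets. IRX15-L and IRX15, a pair of related proteins needed for normal xylan in secondary walls, had large differences. IRX15-L read 8.08, 8.32 and 8.05 in C3H14-OE and 9.82, 10.50 and 9.98 in the mutant (difference -1.95, SE 0.26, adjusted p = 0.00161), so the mutant was 3.86-fold higher. IRX15 read 7.44, 7.78 and 7.46 against 9.14, 9.42 and 9.25 (difference -1.71, SE 0.24, adjusted p = 0.00218), which is 3.27-fold. The overexpressor arrays lay within a narrow range and far below the mutant arrays for both genes.

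GUT2 (IRX10), a glycosyltransferase that builds the xylan backbone, read 8.10, 8.30 and 8.14 against 9.38, 9.34 and 9.37 (difference -1.19, SE 0.23, adjusted p = 0.00775). Its close relative GUT1 (IRX10-L) read 7.84, 7.77 and 7.70 against 7.86, 8.19 and 8.08 and was not called (difference -0.27, adjusted p = 0.127). These 4 genes are the members of a list of 22 xylan genes that had a named probe set, and the count of 3 held under every alternative run. WT means lay between the groups for the 3, at 8.90 ± 0.23 (SD, n = 3) for IRX15-L, 8.33 ± 0.12 for IRX15 and 8.79 ± 0.19 for GUT2. C3H15-OE was at or below C3H14-OE, at 7.64 ± 0.58, 7.16 ± 0.63 and 7.88 ± 0.60. The mutant was above WT by 1.2 for IRX15-L (adjusted p = 0.0242) and by 0.94 for IRX15 (adjusted p = 0.0454), while C3H14-OE was not called against WT for either (adjusted p = 0.273 and 0.239).

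These 3 xylan genes are also the named members among 11 markers of stem with secondary walls. Their mean log2 level over the marker list was 7.87 to 8.13 in the C3H14-OE arrays and 9.45 to 9.75 in the mutant arrays. In whole stem RNA, fewer cells of a type and less RNA per cell cannot be told apart. The secondary wall cellulose synthases and the secondary wall transcription factors had no named probe set and were not analysed here. Of 3 named lignin genes only HCT, an acyltransferase of the monolignol pathway, was called, against 6.86% of all probe sets lower. It read 10.23, 10.31 and 10.20 against 11.13, 10.57 and 10.81 (difference -0.59, adjusted p = 0.0272). Its adjusted p stayed under 0.05 in 14 of 21 alternatives, and its difference fell short of the added 2-fold rule.

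In other wall and cytoskeleton families a few members each were called, nearly all of them lower. Over all probe sets 6.86% were lower and 7.89% higher. The lower shares of several of these families lay above 6.86%, on small counts. Of 22 TRICHOME BIREFRINGENCE-LIKE genes, a family of wall polysaccharide acetyltransferases, 3 were lower and none was higher. TBL38 read 8.99, 8.61 and 8.58 against 9.88, 9.82 and 9.62 (difference -1.04, adjusted p = 0.00226), TBL37 differed by -0.77 and TBL25 by -0.72. Of 15 GH9 endoglucanases, which cleave glucans of the wall, 3 were lower. GH9B5 read 6.50, 7.01 and 6.47 against 8.55, 8.31 and 7.91 (difference -1.59, adjusted p = 0.00799), GH9B7 differed by -1.03 and GH9A3 by -0.82. Without the third C3H14-OE array 1 of these 3 calls was left. GH9B13 lay the other way at 1.76 and was not called (adjusted p = 0.0671).

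Of 9 tubulin-list probe sets, which include 2 tubulin folding cofactors, 2 were lower, against 6.86% of all probe sets. TUB6 read 10.57, 10.69 and 10.35 against 11.45, 11.34 and 11.42 (difference -0.87, adjusted p = 0.00334). TUA6 differed by -0.86 (adjusted p = 0.0211), and it lost its call without the first or the third C3H14-OE array or the second mutant array. IQD21, of a family of calmodulin-binding proteins that associate with microtubules, read 6.24, 6.24 and 5.80 against 7.53, 7.57 and 7.88 (difference -1.57, adjusted p = 0.00141), and IQD16 differed by -0.40. They were the 2 called members of 15, beside the same 6.86%.

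The xyloglucan endotransglucosylases, which remodel xyloglucan in primary walls, had 3 of 10 lower, against 6.86% of all probe sets. XTH33 read 3.90, 4.54 and 3.53 against 4.54, 7.44 and 6.50 (difference -2.17, adjusted p = 0.0253), and its groups met because the first mutant array was low. XTH29 (-1.03) and XTH32 (-0.77) were the other 2. The count fell to 0 with only the arrays compared or without the second mutant array. EXPB1 (-0.66, adjusted p = 0.0102) was the only called expansin of 19. CSLD2, of the cellulose synthase-like family, was higher (0.69, adjusted p = 0.0123), the only call in its list of 9, beside 7.89% of all probe sets. None of 4 pectin-modifying genes and none of 3 core histone genes was called.

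**Figure D3:**
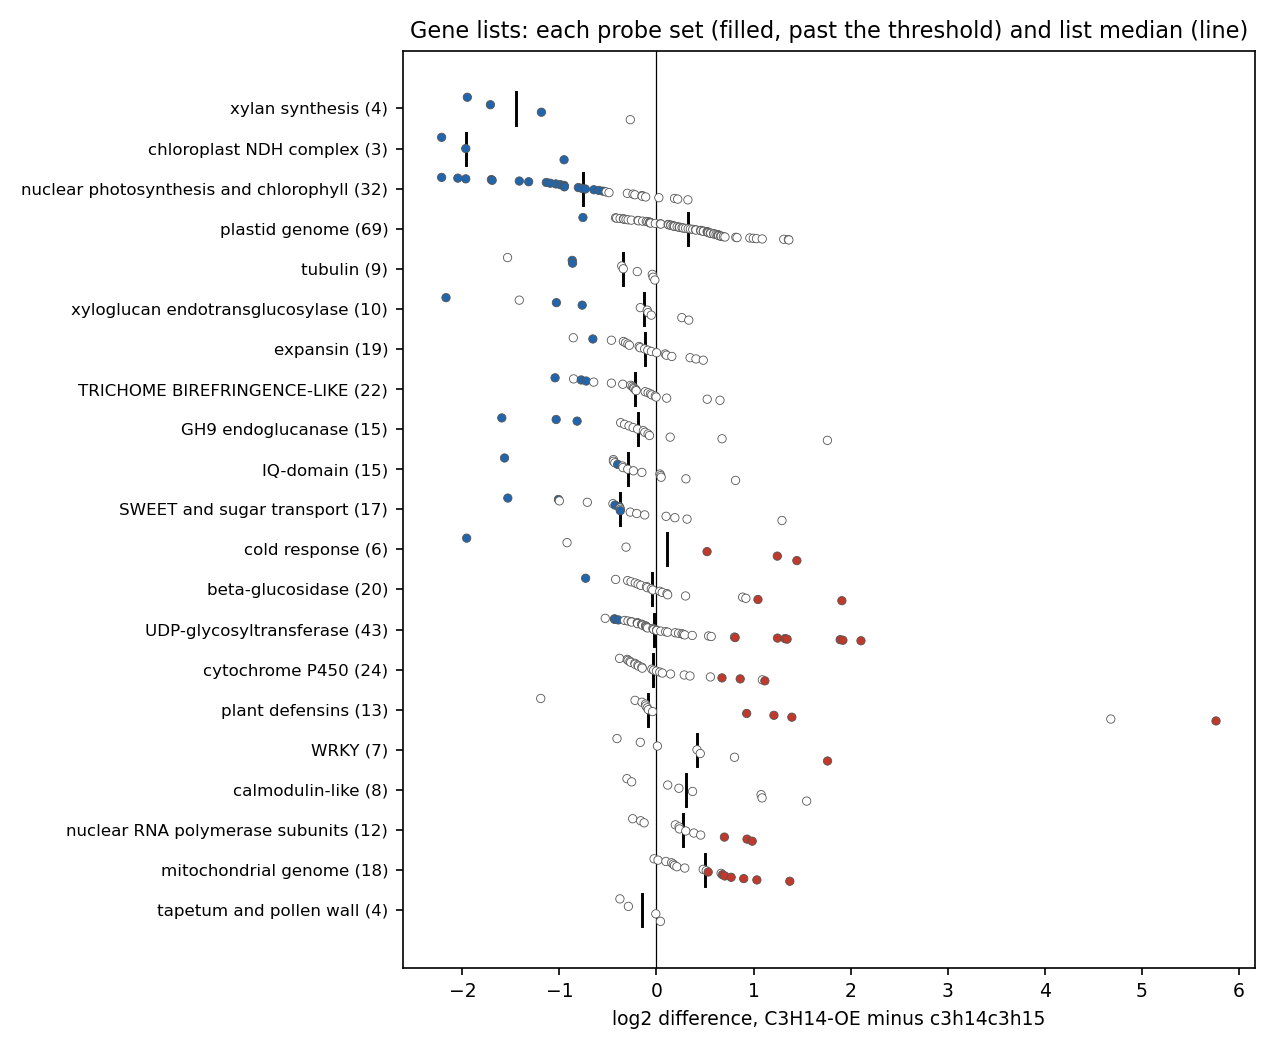
Log2 difference, C3H14-OE minus c3h14c3h15 (x axis), of every named probe set in each gene list (rows, number of probe sets in brackets), filled red or blue where higher or lower at an adjusted p under 0.05, with a line at the list median. Xylan and photosynthesis lists lie to the left of 0 with medians of -1.45 and -0.75, and the mitochondrial list lies to the right with a median of 0.50.

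Photosynthesis genes formed the widest group that was lower in C3H14-OE. Of 32 nuclear genes for photosynthesis and chlorophyll synthesis 20 were lower, against 6.86% of all probe sets, and none was higher, with a median of -0.75. The mean log2 level over the 32 was 8.19, 8.01 and 7.62 in the C3H14-OE arrays and 8.54, 8.87 and 8.75 in the mutant arrays. WT arrays lay at 8.21, 8.12 and 8.21, inside or just above the overexpressor range, and C3H15-OE arrays at 7.77, 7.93 and 7.96. This list was drawn up after the values were known and is a description. The count was 12 with only the arrays compared and 16 without the third C3H14-OE array, which was the lowest of its group.

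NdhL and NdhN are subunits of the chloroplast NDH complex, which carries electrons around photosystem I. NdhL read 6.79, 6.05 and 5.22 in C3H14-OE against 8.11, 8.30 and 8.29 in the mutant (difference -2.21, SE 0.31, adjusted p = 0.00206). NdhN read 6.99, 6.30 and 5.71 against 8.29, 8.33 and 8.28 (difference -1.96, SE 0.26, adjusted p = 0.00161). The mutant arrays were almost equal for these genes, and the overexpressor arrays were spread over more than 1 unit. NdhS read 8.94, 8.85 and 8.67 against 9.61, 9.91 and 9.79 (difference -0.95, adjusted p = 0.00226), which made 3 of 3 named subunits lower. CRR42, a protein needed for accumulation of this complex, differed by -1.69 (adjusted p = 0.00381).

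Light harvesting and photosystem genes lay the same way. LHCB4.3, a minor antenna protein of photosystem II, read 8.03, 7.53 and 7.19 against 9.13, 10.09 and 9.67 (difference -2.05, SE 0.30, adjusted p = 0.00234). Its relatives LHCB4.2 (-0.80, adjusted p = 0.0268) and LHCB4.1 (-0.77, adjusted p = 0.00395) were also lower, as were PSBY (-1.04), PSAN (-1.32) and PSAE-1 (-1.13). In the Calvin cycle, the regeneration enzyme SBPASE read 8.97, 8.47 and 8.08 against 9.88, 10.57 and 10.16 (difference -1.70, adjusted p = 0.00183), and PRK differed by -1.09 and the Rubisco activase RCA by -0.64. The chlorophyll branch held LIL3:1 (-1.41), CHLI2 (-0.95) and CHLM (-0.55) among its lower members, while HEMA2 (0.32) and HEMA3 (0.19) were not called.

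For several of these genes the distance lay between the mutant and WT. LHCB4.3 stood at 7.78 ± 0.44 (SD, n = 3) in WT, level with C3H14-OE, and c3h14c3h15 was above WT by 1.85 (adjusted p = 0.00861). NdhN in the mutant was above WT by 1.65 (adjusted p = 0.00832) and NdhL by 1.53 (adjusted p = 0.019). C3H14-OE was not called against WT for these 3 (adjusted p = 0.791, 0.613 and 0.355). All 5 markers of green tissue were lower in C3H14-OE. These 5 are also members of the list of 32 photosynthesis genes, read by the same probe sets, and are not a separate result. The mean log2 level over those markers was 9.34 to 9.98 in its arrays, 10.81 to 11.38 in the mutant and 9.95 to 10.26 in WT. The part of tissue makeup in the photosynthesis result was not tested.

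**Figure D4:**
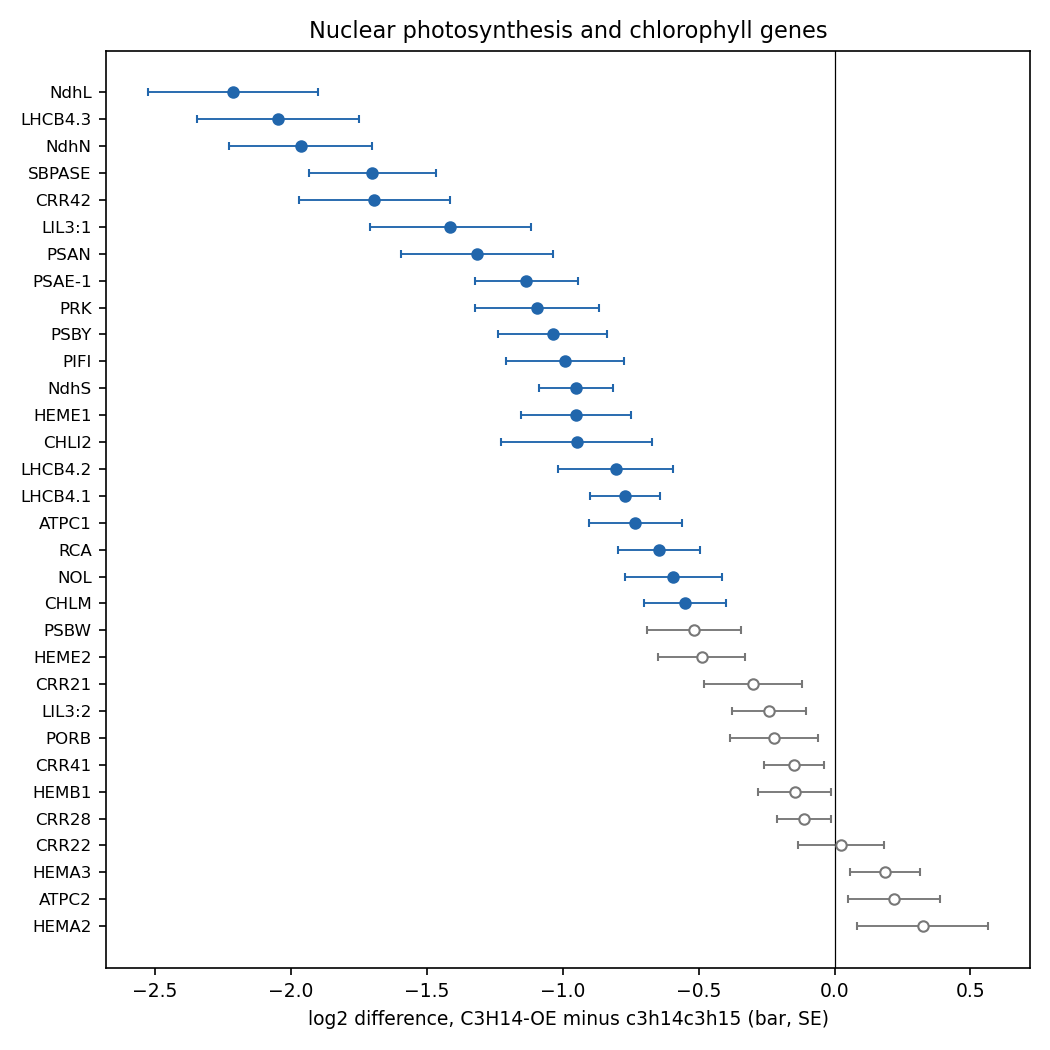
Log2 difference, C3H14-OE minus c3h14c3h15, with its SE (x axis) for the 32 nuclear photosynthesis and chlorophyll genes (rows), filled where the adjusted p was under 0.05. The 20 called genes all lie below 0, from -2.21 for NdhL to -0.55 for CHLM, and 4 of the uncalled genes lie above 0.

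Genes of the organelle genomes did not follow the nuclear photosynthesis genes. Of 69 probe sets of the plastid genome 1 was lower, against 6.86% of all probe sets. It was ccsA, which encodes a cytochrome c maturation factor (difference -0.76, adjusted p = 0.029). Its call was lost without the first or the third C3H14-OE array or the second or the third mutant array. None of the 69 was higher, against 7.89% of all probe sets, and their median was 0.33. Labelling in these 3′ arrays starts from poly(A), which organelle transcripts carry rarely, so these levels are less secure than those of nuclear genes.

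In the mitochondrial genome 7 of 18 probe sets were higher, against 7.89% of all probe sets, and none was lower, with a median of 0.50. The 18 are not separate genes, since 7 of them belong to nad1. The complex I gene nad9 read 5.79, 6.24 and 6.19 against 4.81, 4.94 and 4.35 (difference 1.37, SE 0.17, adjusted p = 0.00122). The complex IV gene cox1 read 8.43, 8.46 and 8.92 against 7.95, 7.77 and 6.98 (difference 1.03, adjusted p = 0.0277). The cox1 call was kept in 14 of 21 alternatives. It was lost, among others, without any 1 of the C3H14-OE arrays and without the third mutant array. Of the 7 probe sets of nad1, 3 were called, and the one with the largest difference read 6.17, 6.26 and 6.17 against 5.14, 5.51 and 5.26 (difference 0.90, adjusted p = 0.00141). WT stood with the overexpressor for this nad1 probe set, at 6.29 ± 0.10 (SD, n = 3). Also higher were nad4L (0.68) and 1 of 2 probe sets of nad5 (0.77), the latter with the _s_at suffix that marks probes shared by related transcripts. The mean log2 level over the 18 probe sets was 5.38 to 5.50 in C3H14-OE, 4.83 to 5.09 in the mutant and 5.23 to 5.52 in WT. The count was 5 with only the arrays compared.

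Subunits of nuclear RNA polymerases had 3 of 12 members higher, against 7.89% of all probe sets, and none lower. NRPA1, the largest subunit of RNA polymerase I, read 5.62, 5.76 and 5.81 against 4.81, 4.74 and 4.68 (difference 0.99, SE 0.14, adjusted p = 0.00226). NRPA2, the second largest subunit of that enzyme, read 6.74, 6.91 and 6.75 against 5.74, 5.80 and 6.06 (difference 0.93, adjusted p = 0.00111). NRPC1, the largest subunit of RNA polymerase III, differed by 0.70 (adjusted p = 0.0205). None of the named subunits particular to RNA polymerases II, IV or V was called. This list, too, was chosen after the values were known.

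SWEET proteins carry sugars across membranes. Of 17 probe sets found under this name 5 were lower and none was higher, against 6.86% and 7.89% of all probe sets. SWEETIE is among the 17 and is not itself a SWEET transporter. SWEET13 read 3.12, 3.16 and 3.14 in C3H14-OE and 4.35, 4.97 and 4.69 in c3h14c3h15 (difference -1.53, SE 0.15, adjusted p = 0.000625). WT stood at 3.08 ± 0.17 (SD, n = 3) and C3H15-OE at 3.16 ± 0.12. These 3 groups read at the dim level of the tapetum and pollen markers given further on, so the size of the SWEET13 difference is not secure. SWEET1 read 5.93, 5.90 and 5.94 against 7.44, 6.64 and 6.72 (difference -1.01, adjusted p = 0.00699) with WT at 5.87 ± 0.17. The differences of SWEET9 (-0.43), SWEET14 (-0.38) and SWEET10 (-0.37) were small and at dim levels. Without the dimmest 40% of probe sets, which include SWEET13, the count was 1, SWEET1. It was 2 with only the arrays compared and 2 without the third C3H14-OE array.

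The cold response list was split. Of its 6 probe sets 3 were higher and 1 was lower, against 7.89% and 6.86% of all probe sets. COR15A (-0.92, adjusted p = 0.183) and COR47 (-0.31, adjusted p = 0.189) were not called. COR15B, a cold-induced protein of the chloroplast stroma, read 6.57, 6.32 and 5.68 in C3H14-OE and 8.13, 8.19 and 8.11 in the mutant (difference -1.96, SE 0.22, adjusted p = 0.00103). GI, a clock gene, was higher by 0.52 (adjusted p = 0.0215), COR27, a gene under clock and cold control, by 1.25 (adjusted p = 0.0318) and AT4G33980 by 1.45 (adjusted p = 0.0126). WT levels of these 3 were at or above those of C3H14-OE, at 8.94 ± 0.01, 7.43 ± 0.30 and 8.30 ± 0.41 (SD, n = 3), and c3h14c3h15 lay below WT for each, with differences of -0.69, -2.21 and -1.98. None of the 3 was called with only the arrays compared, and COR27 and GI were not called without the third C3H14-OE array.

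Surface lipid and other genes completed the named set with the largest negative differences. SHN3, a transcription factor of cuticle formation, read 5.32, 5.60 and 5.58 against 6.98, 7.24 and 7.51 (difference -1.74, SE 0.26, adjusted p = 0.00238). WSD1, a wax ester synthase and the named member among 4 markers of stem epidermis, read 2.48, 2.28 and 3.13 against 4.36, 4.44 and 4.04 (difference -1.65, adjusted p = 0.0109), also dim levels. ATG8H, an autophagy protein, read 6.59, 6.84 and 6.41 against 8.25, 8.61 and 8.10 (difference -1.70, SE 0.17, adjusted p = 0.000625). The groups did not overlap for these genes, which was a condition of their choice. The WT means of 5.88, 3.03 and 7.07 lay nearer to C3H14-OE than to the mutant.

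Some of the largest negative differences rested on a divided mutant group. AT5G44680 read 3.76, 3.54 and 3.32 in C3H14-OE and 4.41, 8.21 and 7.29 in the mutant (difference -3.10, adjusted p = 0.037). P1R1 read 2.65, 3.17 and 2.60 against 3.53, 7.31 and 6.37 (difference -2.93, adjusted p = 0.0436). The first mutant array was low for both, near the overexpressor arrays. Their calls were kept in 11 of 21 and 6 of 20 alternatives. AT5G22580 (-2.87, adjusted p = 0.0214) showed the same low first array, at 8.40 beside 10.69 and 9.84.

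Loci with tighter groups were AT4G33666 (6.0, 5.80 and 5.08 against 8.01, 8.25 and 7.89, difference -2.42, adjusted p = 0.00141) and AT3G14760 (4.07, 3.94 and 3.57 against 6.34, 6.12 and 5.95, difference -2.28, adjusted p = 0.000862). AT3G28270 and AT2G39110 were level between C3H14-OE and WT, and the mutant exceeded WT by 2.37 (adjusted p = 0.00593) and 1.99 (adjusted p = 0.00531). The other loci by rule were AT1G22690 (-2.45), AT3G48420 (-2.44), AT1G78170 (-2.35), AT5G50915 (-2.33), AT5G27290 (-2.17) and AT3G04540 (-2.11). MYBC1 (-0.68, adjusted p = 0.0242) was the called member of 2 named MYB-list genes, beside 6.86% lower over all probe sets.

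Markers of tissues that basal stem should not hold were dim in both groups. The 4 named anther tapetum genes had means from 1.96 to 3.26 in C3H14-OE and from 1.97 to 3.64 in c3h14c3h15, and the named pollen gene stood at 3.34 and 3.46. None was called, and the 4 named genes of the tapetum and pollen wall list gave no call in either direction. SWEET8 (RPG1), a sugar transporter of the tapetum, read 3.44, 3.21 and 3.13 against 3.81, 3.43 and 3.67 (difference -0.38, adjusted p = 0.179). The named vascular marker MOL1 (7.05 and 6.55, adjusted p = 0.0759) and root marker EXPA7 (3.56 and 3.65) were not called either.

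A comparison with no array in common, C3H15-OE against WT, was set beside these results. It had 702 probe sets higher (3.09%) and 811 lower (3.57%). Of these, 199 were higher in both comparisons, which is 11.1% of the 1794 and 28.3% of the 702. The number lower in both was 245, or 15.7% of the 1560 and 30.2% of the 811. Over all probe sets, 7.89% were higher and 6.86% lower in C3H14-OE than in c3h14c3h15. The 199 and 245 became 42 and 36 without the first WT array and 352 and 439 with array weights. Opposite calls were made at 24 and 15 probe sets. Across the 22746 probe sets the 2 sets of differences correlated with Pearson's r of 0.518 and Spearman's rho of 0.438. Probe sets are not independent of one another, and all arrays were normalized together. The 2 comparisons also share the estimate of the spread from 1 fit, so a probe set with little spread is favoured for a call in both.

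**Figure D5:**
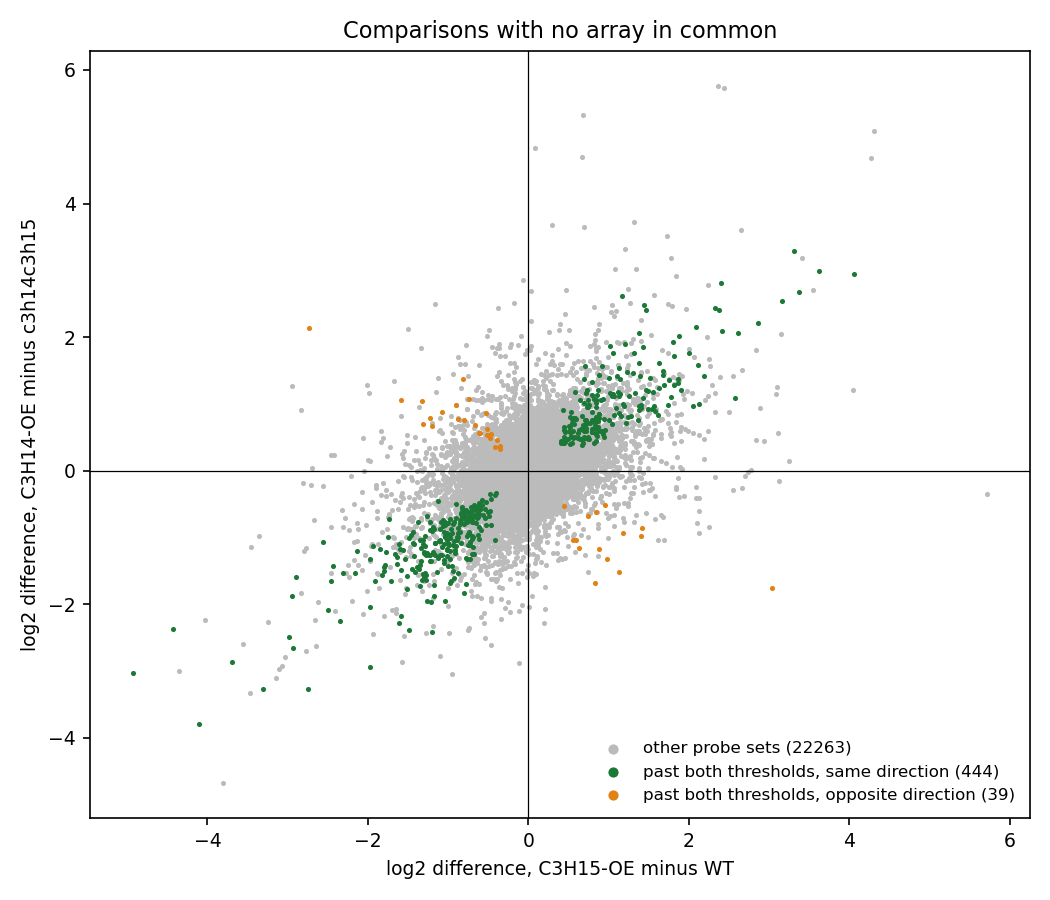
Each point is a probe set, with the log2 difference C3H15-OE minus WT on the x axis and C3H14-OE minus c3h14c3h15 on the y axis. Green points (444) were called in both comparisons in the same direction and orange points (39) in opposite directions.

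Among the genes described above, WRKY53 was higher in C3H15-OE than in WT by 2.0 (adjusted p = 0.0103), UGT72E1 by 1.21 (adjusted p = 0.0208) and UGT87A2 by 1.81 (adjusted p = 0.0145). Lower in C3H15-OE than in WT were IRX15-L (-1.26, adjusted p = 0.0204), IRX15 (-1.17, adjusted p = 0.0205), GUT2 (-0.91, adjusted p = 0.0394), TUB6 (-0.97, adjusted p = 0.00569), IQD21 (-1.30, adjusted p = 0.00709) and COR15B (-1.04, adjusted p = 0.023). NdhL (-0.34), NdhN (-0.25), LHCB4.3 (0.01) and SWEET13 (0.08) were not called there. QQS was higher in C3H15-OE than in WT (3.04, adjusted p = 0.0115). Its difference of -1.75 between C3H14-OE and c3h14c3h15 (adjusted p = 0.0468) was called in 9 of 21 alternatives, with adjusted p up to 0.147.

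C3H14-OE and C3H15-OE were compared directly to ask whether the response to the double mutant differs between the overexpressors. Of the 22746 probe sets 28 were called (0.123%), 14 higher and 14 lower in C3H14-OE. QQS, an orphan gene linked to carbon and nitrogen allocation, read 5.23, 4.48 and 4.95 in C3H14-OE and had a mean of 8.36 ± 0.55 (SD, n = 3) in C3H15-OE (difference -3.47, adjusted p = 0.0364). TBL38 was also lower in C3H14-OE than in C3H15-OE (-0.98, adjusted p = 0.0364). C3H14 itself was 2.68 higher in C3H14-OE and missed the threshold (adjusted p = 0.0553). When limma was fitted to the 6 overexpressor arrays alone, 0 probe sets were called, with a smallest adjusted p of 0.0849 and 2650 probe sets at an unadjusted p under 0.05. Few calls among 3 against 3 arrays do not show that the overexpressors act alike.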

How the data were processed

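The deposited table gives 1 normalized intensity, not on a log scale, for each probe set and array. The submitters' processing notes name RMA, without version or settings. Log2 was taken. After removal of 64 control probe sets from 22810 rows, 22746 were tested, dim ones included. The 12 arrays form 4 groups of 3. The log2 medians lay between 5.65 and 5.84, no arrays were identical, and the number of arrays limits the precision.

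limma (3.58.1, R 4.3.3) fitted a mean per group to all 12 arrays (8 residual and 3.61 prior degrees of freedom), with p-values adjusted by Benjamini-Hochberg over all probe sets. Every adjusted p comes from limma. Replicate numbers were not taken as pairs: of 3 same-numbered pairs between the groups compared 1 had deviations correlated over 0.1 (range -0.06 to 0.27).

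Genes were named from the platform's annotation: 13513 probe sets had 1 gene, 503 several and 8730 were unlisted. Of the first, 13436 matched RefSeq (TAIR10.1) loci. Another 18 probe sets were placed in the mitochondrial genome by symbol, and the plastid and mitochondrial lists were defined by chromosome after the annotation was seen.

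The groups, gene lists and genes were chosen with earlier results of these data known. Genes named are C3H14, the 15 largest called differences each way among 1-gene probe sets whose arrays do not overlap, up to 4 called members of each list (all if 5 or fewer, up to 2 as values if none), and up to 10 genes called between the overexpressors. Chosen after their values were seen were the largest differences with a symbol, the lists of nuclear photosynthesis, defensin, GH9, TRICHOME BIREFRINGENCE-LIKE, IQ-domain, beta-glucosidase and RNA polymerase genes, and other list members named beside these. The lists of secondary wall cellulose, secondary wall transcription factor, fasciclin-like, lipid transfer, GASA, SAUR, heat shock, receptor kinase and ribosomal protein genes had no named probe set.

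Alternative fits used cyclic loess or repeated quantile normalization, dropped the dimmest 40% of probe sets, took the arrays compared alone, added a block for replicate number, array weights or a robust prior with an intensity trend, required 2-fold as well, or left out each array in turn. Leaving out the 2 arrays that lay apart was added after seeing the data.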

Additional observations from a re-analysis of the deposited data

Results flagged for a closer look

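The responses of the 2 overexpressors, each set against the double mutant, differed at 28 probe sets, 14 of them with a gene name, by a test of the difference itself, which is C3H14-OE minus C3H15-OE in the limma fit. Among those with a name, the 10 largest differences were -3.47 for QQS, -2.52 for MSRB9, -1.97 for AT4G00700, 1.74 for AT1G50040, 1.30 for AT5G05890, 1.29 for TRM28, -1.26 for AT1G53980, -1.12 for AT2G39710, -1.08 for AT5G62350 and 1.08 for AT2G20670. The other 4 were AT1G31040 (1.03), TBL38 (-0.98), GLR2.8 (-0.84) and AT5G34800 (0.83). MSRB9, a methionine sulfoxide reductase, was level between C3H14-OE (3.55 ± 0.30) and c3h14c3h15 (3.81 ± 0.12) and stood at 6.07 ± 0.43 in C3H15-OE (SD, n = 3). AT1G50040 was likewise level between C3H14-OE (6.65 ± 0.43) and c3h14c3h15 (6.87 ± 0.23) and was low in C3H15-OE (4.91 ± 0.21). AT4G00700 was higher in C3H14-OE than in the mutant by 1.09 (adjusted p = 0.0278) and higher still in C3H15-OE. None of the 28 calls was made when only the 6 overexpressor arrays were fitted.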

How the results depend on the processing

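Of the 102 named genes called between C3H14-OE and c3h14c3h15, 61 kept the call under every alternative other than the 2-fold rule, and 41 lost it under at least 1. No called direction was reversed, scaling alternatives included. Settings that kept the values, arrays and weights of both groups could not reverse one. Fitting only the arrays compared gave 992 higher and 856 lower, none between the overexpressors (0 and 0 against 14 and 14), and 106 shared with C3H15-OE against WT among those higher in both. Of the 3354 calls this fit kept 1766 (52.7%). The added 2-fold rule gave 345 and 415, 9 higher between the overexpressors, and 62 and 103 shared. Array weights gave 536 and 345 between the overexpressors and 352 and 439 shared. Between the overexpressors cyclic loess gave 24 higher and the filter on dim probe sets 7 lower. Leaving out both arrays that lay apart gave 985 lower, 154 and 56 between the overexpressors, and 368 shared among those lower. The causes were not tested, except that a fit to fewer arrays has fewer degrees of freedom. Leaving out each array in turn gave 988 to 1795 higher and 815 to 1659 lower. The same step gave 0 to 83 higher and 0 to 100 lower between the overexpressors, and 42 to 295 and 36 to 452 shared, the lowest of the latter without the first WT array. With the replicate number as a block, the fit gave 1604 higher and 1301 lower, 7 and 8 between the overexpressors and 156 shared among those lower. The numbers were not taken as pairs. Only 1 of the 3 pairs between these groups correlated over 0.1, and 3 pairs cannot settle whether the arrays were paired. Limits: 3 arrays a group, joint normalization, a 3′ platform, dim probe sets whose differences are compressed, and 8730 probe sets without a name.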
